A study of Mus musculus with 15 samples.

Results

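Genes of the tumor necrosis factor (TNF) superfamily and its signaling adaptors made up 34 of the 547 endogenous genes counted in microglia sorted from mouse brain after controlled cortical impact (CCI). They were taken as every endogenous probe whose gene name began with Tnf or Traf, together with Lta, Ltb, Ltbr, Fas, Fasl, Cd27, Cd40 and Cd40lg. By role these were 13 ligands, 13 receptors, 6 TRAF adaptors and 2 genes named for their induction by TNF. Cd70 and Tnfrsf1a, the latter the broadly expressed TNF receptor, were not analysed here.

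Microglia were sorted as CD11b-high cells with low to intermediate CD45, and their RNA was counted with color-coded nCounter probes in 4 sham samples, 4 samples at 2 days post-injury (dpi), 4 at 14 dpi and 3 at 60 dpi. All mice were male wild-type C57BL6J, aged 3 months in the methods and 2 months elsewhere in the same text. CCI is a piston blow to the exposed cortex that leaves a focal contusion, and the sham mice were 2-day shams, so neither 14 nor 60 dpi had a sham of its own age since surgery. Mice were randomized between sham and 2 dpi but not to the later times. Samples are numbered within their group in the order of the records. Nothing in the labels ties a sample to 1 mouse or to a pool, so the p-values speak only to how far these samples scatter. In bulk RNA of sorted cells, fewer cells of a type and less RNA per cell cannot be told apart.

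Endogenous counts summed to 66905 to 280528 per sample. The 12 sham, 2 dpi and 14 dpi samples came from 1 nCounter run and the 3 samples at 60 dpi from another, so run and 60 dpi cannot be told apart. A gene was called above background in a sample when its raw count exceeded the mean plus 2 SD of the sample's 8 negative-control probes. This limit lay between 25.0 and 34.0 counts in the first run. The second run had limits of 57.1 to 67.7, and its counts of a single negative control, NEG_B, were 50 to 72 against 7 to 12 earlier. All 8 microglial markers on the panel, among them Cx3cr1, Csf1r, Trem2 and C1qa, were above background in every sample, and their summed normalized count was 28250 to 37890 in sham, 20860 to 27200 at 2 dpi, 33720 to 37400 at 14 dpi and 26730 to 35270 at 60 dpi. Of the 9 monocyte and border macrophage markers, 2 were above background in every sample, and their sum ran from 627 to 850 in sham, 1445 to 1860 at 2 dpi, 731 to 1189 at 14 dpi and 1270 to 1713 at 60 dpi. The 6 neutrophil markers, of which S100a8 and S100a9 were above background in every sample, summed to 8514 in sham sample 4 against 234 to 764 in the other sham samples, to 9593 in 2 dpi sample 3 against 670.5 to 1982 in the other samples of that time, to 464 to 1264 at 14 dpi, and to 8774 to 39350 at 60 dpi. Of 16 T cell markers, 11 (Cd3e, Cd8a and Lck among them) were at background in all 15 samples, and the list summed to 205 to 552 in sham, 241 to 355 at 2 dpi, 238 to 488 at 14 dpi and 556 to 785 at 60 dpi. Of 9 B cell and plasma cell markers reported here, 4 (Ms4a1, Cd79a, Pax5 and Cr2) were at background in all 15 samples and Blnk was above it in all, and they summed to 495 to 755 in sham, 366 to 524 at 2 dpi, 631 to 911 at 14 dpi and 554 to 721 at 60 dpi.

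**Figure D1:**
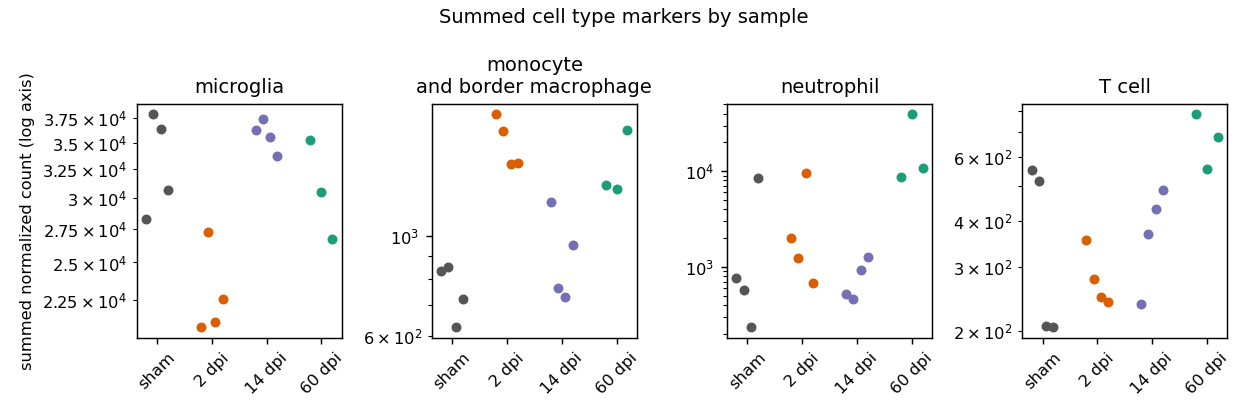
Summed normalized counts (log axis) of the microglial, monocyte and border macrophage, neutrophil and T cell marker lists in each of the 15 samples, by group. Sham sample 4 and 2 dpi sample 3 stand above the rest of their groups in neutrophil markers, and all 3 samples at 60 dpi lie between 8774 and 39350.

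TNF family ligands are made mostly as membrane-anchored trimers, which can be shed, and they act on receptors that cluster when bound. Receptors with a death domain can start caspase cascades, and TRAF adaptors, many of them ubiquitin ligases, link receptors of the family to NF-kappaB and MAP kinases. NF-kappaB in turn induces inhibitors of the pathway such as the ubiquitin-editing enzyme A20, encoded by Tnfaip3. Microglia are a source of TNF in the injured brain and carry the TNF receptor encoded by Tnfrsf1b.

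The 250 bases before the transcription start of 5 members whose counts changed are given as in RefSeq's table for GRCm38.p6, to set the start regions of Tnf, its inhibitor gene Tnfaip3 and the most changed receptors side by side. Capitals mark matches, on either strand, to the TATA box (TATAAA) in Tnf, to the NF-kappaB consensus in Tnfaip3 and Tnfrsf8, and to the interferon-stimulated response element in Tnfrsf14 and Tnfrsf17, which read there on the opposite strand. The regions are chr17:35202008-35202257 on the minus strand for Tnf, chr10:19015411-19015660 on the minus strand for Tnfaip3, chr4:145315165-145315414 on the minus strand for Tnfrsf8, chr4:154928078-154928327 on the minus strand for Tnfrsf14 and chr16:11313559-11313808 on the plus strand for Tnfrsf17. Those of Tnfrsf14 and Tnfrsf17 lie inside the annotated span of the gene, before the start of a transcript that begins further in.
Tnf: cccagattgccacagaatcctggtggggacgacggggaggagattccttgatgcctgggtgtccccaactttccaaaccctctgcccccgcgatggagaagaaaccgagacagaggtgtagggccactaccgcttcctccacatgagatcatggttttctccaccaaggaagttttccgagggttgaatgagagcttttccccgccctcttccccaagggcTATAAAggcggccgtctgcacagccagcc
Tnfaip3: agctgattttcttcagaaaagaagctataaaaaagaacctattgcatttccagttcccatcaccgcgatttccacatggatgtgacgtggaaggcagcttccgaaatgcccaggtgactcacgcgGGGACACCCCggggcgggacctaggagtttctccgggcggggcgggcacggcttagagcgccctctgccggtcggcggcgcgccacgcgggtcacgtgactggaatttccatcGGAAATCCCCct
Tnfrsf8: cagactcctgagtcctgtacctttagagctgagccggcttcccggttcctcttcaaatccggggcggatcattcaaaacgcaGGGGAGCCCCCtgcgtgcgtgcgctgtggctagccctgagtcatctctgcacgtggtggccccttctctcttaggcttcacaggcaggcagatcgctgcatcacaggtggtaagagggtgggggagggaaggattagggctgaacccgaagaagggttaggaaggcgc
Tnfrsf14: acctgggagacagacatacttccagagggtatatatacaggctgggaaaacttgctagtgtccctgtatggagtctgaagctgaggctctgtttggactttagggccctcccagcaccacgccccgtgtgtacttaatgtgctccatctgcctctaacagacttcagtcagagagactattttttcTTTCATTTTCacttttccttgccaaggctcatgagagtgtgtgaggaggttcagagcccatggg
Tnfrsf17: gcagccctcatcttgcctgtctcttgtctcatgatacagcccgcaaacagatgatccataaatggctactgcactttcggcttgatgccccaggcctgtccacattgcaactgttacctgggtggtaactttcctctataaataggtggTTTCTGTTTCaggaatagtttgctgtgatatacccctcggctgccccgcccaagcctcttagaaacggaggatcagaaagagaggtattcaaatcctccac
Tnf held the TATA box and no match to the NF-kappaB consensus in this window, which says only that those letters are not in it. TATAAA was also present, in lower case here, in Tnfaip3 at 225 and in Tnfrsf17 at 114 bases before the start, against 29 in Tnf. In Tnfaip3 there were 2 NF-kappaB matches, and in Tnfrsf8 2 overlapping matches. Among the 31 members with an entry, 3 of them with 2 starts (Cd40, Cd40lg and Tnfsf12 had none), the NF-kappaB consensus occurred in 5, the interferon-stimulated response element in 4 and the TATA box in 6. Over 32851 mouse promoters of the same length these motifs occurred in 7.25%, 2.98% and 12.4%. Within the 5 regions no match overlapped that of another motif.

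Of the 34 members, 12 were above background in all 15 samples, 5 more in at least 3 samples, 2 in 1 sample each, and 15 in no sample. Within a group, 13 members were above background in every sham sample and 14 in every sample of each later time. The 15 were the ligands Lta, Ltb, Cd40lg, Fasl, Tnfsf8, Tnfsf11, Tnfsf14, Tnfsf15 and Tnfsf18, the receptors Cd27, Fas, Tnfrsf4, Tnfrsf9 and Tnfrsf13c, and Traf1. Many of these are known from lymphocytes, such as Cd40lg, the helper T cell ligand of CD40, Fasl, the death ligand of cytotoxic cells, Tnfrsf4 and Tnfrsf9, the costimulatory receptors OX40 and 4-1BB, and Tnfrsf13c, the BAFF receptor of B cells. Tnfaip6, which encodes the hyaluronan-binding protein TSG-6, and Traf4 exceeded the limit in 14 dpi sample 2 alone, at 29 raw counts each. Raw counts of the 17 members outside the tests ran from 2 to 29 before 60 dpi and from 4 to 47 at that time, and at this depth their absence cannot be told from a low level. The highest was Cd40lg, whose raw counts were 12 to 24 in sham, 8 to 14 at 2 dpi, 12 to 20 at 14 dpi and 47, 37 and 43 at 60 dpi. The raw 60 dpi counts of Cd40lg were above all others, under the limit of their own run, and once normalized (50.1, 30.3 and 38.3) they overlapped the sham samples. That limit takes in the high NEG_B. Without NEG_B it was 46.9, 47.8 and 39.7 in the 60 dpi samples, and Cd40lg exceeded it in samples 1 and 3.

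**Figure D2:**
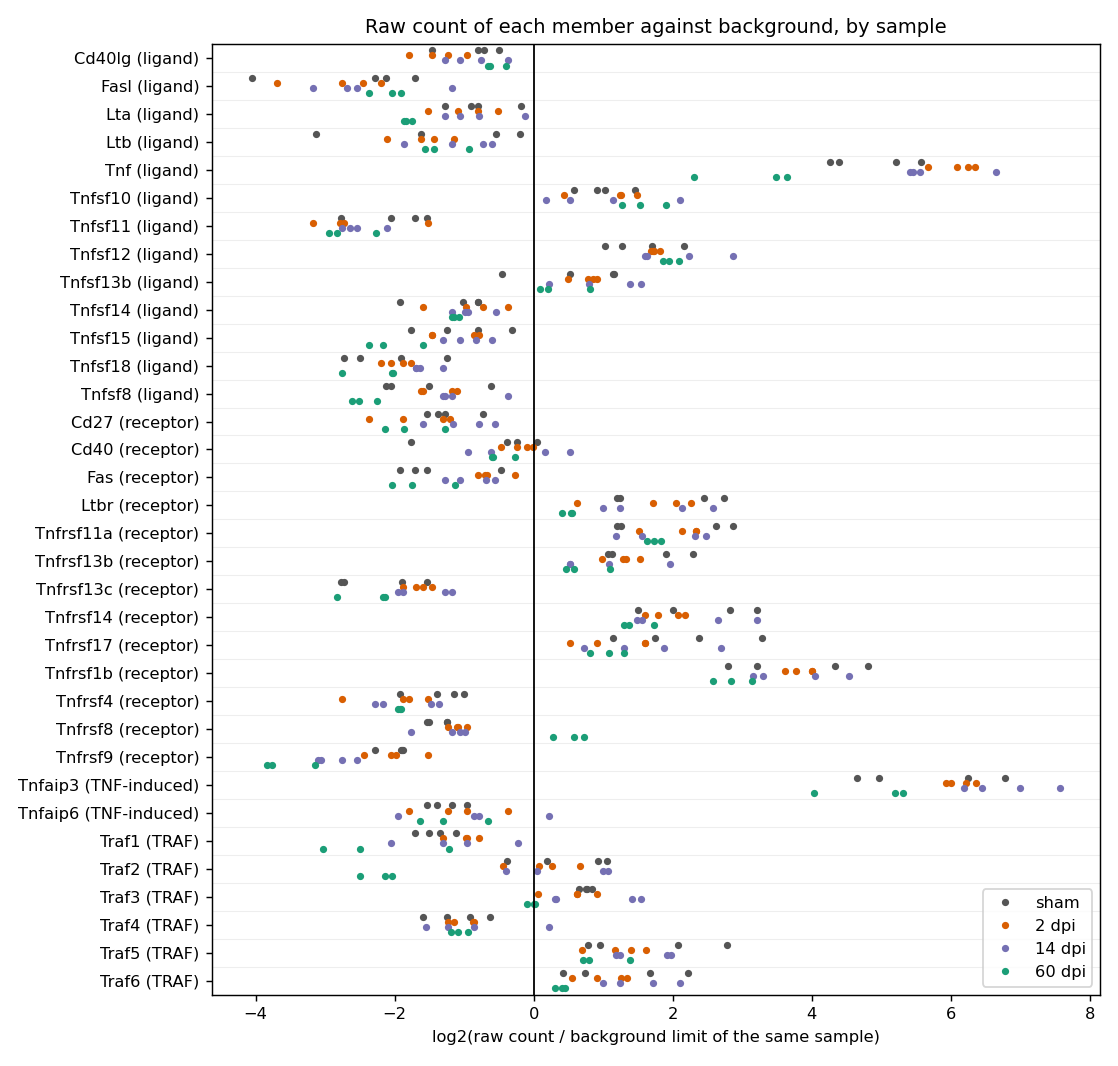
Raw count of each of the 34 members divided by the background limit of the same sample, on a log2 axis, with 1 point per sample colored by group. Points right of the vertical line are above background. The points of 12 members lie wholly to the right, 15 members wholly to the left, and Tnfrsf8 crosses the line only at 60 dpi.

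The 17 members above background in at least 3 samples entered the comparisons, in which 359 genes were tested in all. By role they were 4 ligands, 8 receptors, Tnfaip3 and 4 TRAFs. Counts below are normalized to the positive controls and housekeeping genes, and fold changes are on the log2 scale, so that a value of 1 is a doubling. The ± value of a change is a standard error worked back from the test, the size of the change divided by the square root of its F statistic. Adjusted p-values come from edgeR's quasi-likelihood test over all 359 genes.

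Tnf, the founding cytokine of the family, was higher at 2 and 14 dpi than in sham and fell by 60 dpi. In the sham samples its normalized counts were 989, 1112, 660 and 915. At 2 dpi they were 2152, 2044, 1666 and 1080, and at 14 dpi 842, 2456, 1939 and 2095. Thus 3 of 4 samples at each time lay above every sham sample, with 2 dpi sample 4 just below the highest sham sample and 14 dpi sample 1 at the sham level. At 60 dpi the counts were 740, 584 and 299, all lower than every sample at 14 dpi. The change against sham was 0.92 ± 0.33 at 2 dpi (adjusted p = 0.0393) and 1.0 ± 0.33 at 14 dpi (adjusted p = 0.0366). Relative to the median of all tested genes it was 1.22 at 2 dpi and 0.91 at 14 dpi. The fall from 14 to 60 dpi was −1.76 ± 0.37 (adjusted p = 0.00144), and 60 dpi against sham, at −0.76 ± 0.36, did not pass (adjusted p = 0.107). The 2 dpi call was lost when any sham sample or any of 2 dpi samples 1, 2 and 3 was left out (adjusted p up to 0.108), and the 14 dpi call when sham sample 1, 3 or 4 or any of 14 dpi samples 2, 3 and 4 was left out (adjusted p up to 0.12). Both were also lost with the authors' normalized values. The fall to 60 dpi passed in every fit that left out 1 sample (adjusted p up to 0.00595), and with TMM scaling, another way to set the sample factors, 60 dpi against sham passed as well (−0.91, adjusted p = 0.0312). Without sham sample 4 and 2 dpi sample 3, the samples rich in neutrophil markers, the changes were as large, at 0.94 at 2 dpi (adjusted p = 0.095) and 1.0 at 14 dpi (adjusted p = 0.0837), and did not pass with fewer samples, a choice made after seeing the data. Tnf at 2 dpi rose beside the monocyte and border macrophage markers, 6 of 8 of which were called higher at that time, and their part in the result was not tested.

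Tnf lies on chromosome 17 (35199367 to 35202007) between Ltb (35194507 to 35196305) and Lta (35203165 to 35205578), which encode the lymphotoxin subunits. At 336 to 2685 raw counts Tnf stood far over the background limit in every sample, while its neighbors stayed under it in all 15, Lta at 9 to 23 raw counts and Ltb at 3 to 30.

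Tnfsf10, which encodes the death ligand TRAIL, was high at 60 dpi only. Its normalized counts were 96.0, 79.5, 48.7 and 39.0 in sham, 42.7, 63.2, 49.0 and 59.4 at 2 dpi, 77.2, 53.6, 63.5 and 55.8 at 14 dpi, and 160, 135 and 226 at 60 dpi. The 3 samples at 60 dpi were above all 12 others. The change was 1.45 ± 0.28 against sham (adjusted p = 0.000539) and 1.46 ± 0.28 against 14 dpi (adjusted p = 0.00042), a 2.74-fold and a 2.76-fold difference. The monocyte and border macrophage markers (6 of 8 tested), the neutrophil sum (8774 to 39350) and the endothelial sum (426 to 1136, against 190 to 308 in sham) were also higher at 60 dpi, and their part in the changes of that time was not tested. At 2 and 14 dpi the changes of −0.24 ± 0.27 and −0.01 ± 0.28 did not pass.

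Tnfsf12, the gene of the ligand TWEAK, was higher at the later times. Sham counts were 123, 108, 79.7 and 62.5, and the counts at 2 dpi, 105, 88.5, 66.4 and 75.0, lay within their range. At 14 dpi they were 131, 114, 137 and 149, and at 60 dpi 241, 179 and 257. All 4 samples at 14 dpi exceeded all 4 at 2 dpi, and the 60 dpi samples exceeded every other sample. The change was 1.31 ± 0.22 at 60 dpi against sham (adjusted p = 0.000154), 0.77 ± 0.22 at 60 against 14 dpi (adjusted p = 0.00784) and 0.67 ± 0.21 at 14 against 2 dpi (adjusted p = 0.0152), while 14 dpi against sham, at 0.54 ± 0.21, did not pass (adjusted p = 0.0695). With TMM scaling the change from 2 to 14 dpi was 0.24 and did not pass (adjusted p = 0.378). Tnfsf13b, which encodes the B cell survival factor BAFF, showed no called change, with group means ± SD of 48.8 ± 18.5 in sham (n = 4), 42.6 ± 9.99 at 2 dpi (n = 4), 62.4 ± 10.5 at 14 dpi (n = 4) and 73.9 ± 6.89 at 60 dpi (n = 3).

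**Figure D3:**
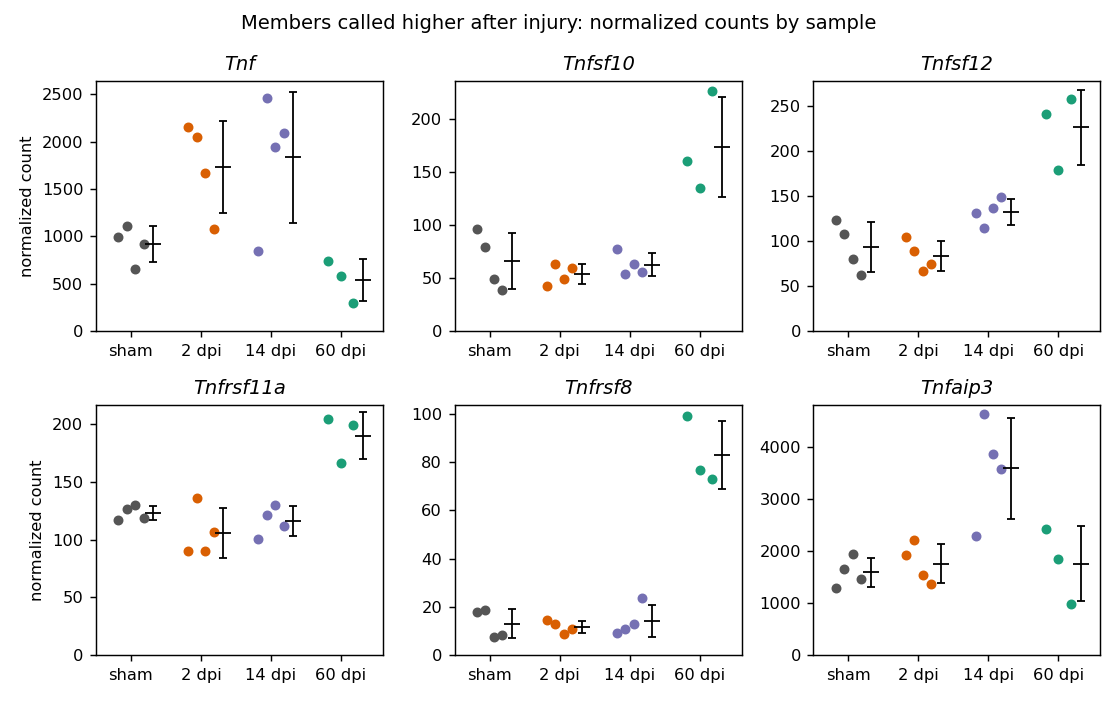
Normalized counts of Tnf, Tnfsf10, Tnfsf12, Tnfrsf11a, Tnfrsf8 and Tnfaip3 in each sample, by group, with the group mean and SD as a black bar beside the points; each vertical axis is linear from 0. Tnf is highest at 2 and 14 dpi, Tnfaip3 at 14 dpi, and the others at 60 dpi.

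Among the receptors, Tnfrsf1b, which encodes the second TNF receptor and is well known on microglia, was steady. Its normalized counts were 356, 491, 495 and 386 in sham, 434, 432, 331 and 260 at 2 dpi, 415, 404, 392 and 487 at 14 dpi, and 474, 410 and 360 at 60 dpi. The groups overlapped throughout, and the log2 changes against sham were −0.25 ± 0.17 at 2 dpi, −0.03 ± 0.17 at 14 dpi and −0.06 ± 0.19 at 60 dpi, none of which passed. Ltbr, the lymphotoxin beta receptor, was not called under the main scaling either. All 4 of its samples at 2 dpi (48.8, 88.5, 98.7 and 87.5) lay below all 4 sham samples (121, 122, 119 and 104), with a change of −0.51 ± 0.21 (adjusted p = 0.0622), which was called with the authors' values. At 60 dpi (97.1, 62.2 and 87.2) it again lay below all sham samples, at −0.50 ± 0.23 (adjusted p = 0.088), and it was called lower there with TMM (−0.65, adjusted p = 0.0246) and with DESeq2 (adjusted p = 0.00871).

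Of the 8 tested receptors, 3 were called lower at 2 dpi than in sham, where 28.1% of all tested genes were. Tnfrsf17, which encodes the plasma cell receptor BCMA, had normalized counts of 114, 178, 172 and 100 in sham and 45.2, 81.7, 38.5 and 64.1 at 2 dpi. No 2 dpi sample reached the lowest sham sample, and the change was −1.30 ± 0.25 (adjusted p = 0.0016), or −1.0 relative to the median of all tested genes. It was 116, 89.7, 109 and 81.1 at 14 dpi and 140, 115 and 106 at 60 dpi, which overlapped sham. At 14 dpi the change of −0.50 ± 0.24 did not pass (adjusted p = 0.135), but it did with TMM scaling (−0.66, adjusted p = 0.0244) and DESeq2 (adjusted p = 0.0153). Tnfrsf14, which encodes HVEM, a receptor of the ligand LIGHT, had counts of 145, 214, 165 and 136 in sham and 109, 114, 93.1 and 64.1 at 2 dpi, again without overlap. Its change was −0.80 ± 0.19 (adjusted p = 0.00385), or −0.50 relative to the median. At 14 dpi (167, 153, 130 and 139) and 60 dpi (172, 155 and 149) it was back within the sham range apart from 14 dpi sample 3. Tnfrsf13b, which encodes TACI, a receptor of BAFF and APRIL, had 108, 115, 87.2 and 72.1 in sham, 62.2, 65.1, 51.5 and 61.0 at 2 dpi, 69.6, 51.7, 63.5 and 71.0 at 14 dpi, and 99.2, 99.8 and 82.8 at 60 dpi. It lay below all sham samples at both early times and overlapped sham at 60 dpi. The changes were −0.66 ± 0.20 at 2 dpi (adjusted p = 0.0174), −0.57 ± 0.20 at 14 dpi (adjusted p = 0.0461) and 0.56 ± 0.21 at 60 against 14 dpi (adjusted p = 0.0408), and relative to the median of all tested genes the 2 dpi value was −0.36 and the 14 dpi value −0.65.

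With TMM scaling the falls of Tnfrsf17 (−1.03, adjusted p = 0.00285) and Tnfrsf14 (−0.54, adjusted p = 0.0131) at 2 dpi passed, and that of Tnfrsf13b (−0.39, adjusted p = 0.116) did not. At 14 dpi Tnfrsf13b was lower with TMM too (−0.72, adjusted p = 0.00437). Its call there was lost in 12 of the 15 fits that left out 1 sample, those without sham sample 4, 2 dpi sample 2 or 60 dpi sample 3 being the exceptions. These receptors fell beside the microglial markers, 6 of 8 of which were called lower at 2 dpi, and beside a lower B cell and plasma cell sum, given above, in which Blnk was called lower and Cd24a higher at 2 dpi. The part of either in the result was not tested.

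At 60 dpi 3 receptors were called higher than in sham, where 25.3% of all tested genes were. They include Tnfrsf8, which entered the tests only through its 60 dpi samples, and Cd40, at background there. Tnfrsf11a, which encodes RANK, the receptor of the osteoclast factor RANKL, had normalized counts of 118, 126, 130 and 118 in sham, 90.3, 136, 90.0 and 107 at 2 dpi, 100, 122, 130 and 112 at 14 dpi, and 205, 167 and 199 at 60 dpi. The 60 dpi samples were above all 12 others, at 0.63 ± 0.17 against sham (adjusted p = 0.007) and 0.72 ± 0.17 against 14 dpi (adjusted p = 0.0024). The RANKL gene itself, Tnfsf11, was at background in all 15 samples.

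Tnfrsf8, which encodes CD30, a receptor of activated lymphocytes, was above background at 60 dpi only. Its raw counts were 9 to 14 in sham, 12 to 14 at 2 dpi and 8 to 14 at 14 dpi, under the background limit in all 12 samples, and 93, 94 and 82 at 60 dpi, over it in all 3. Normalized, the 60 dpi counts were 99.2, 76.9 and 73.0, which put the group at least 2.35-fold higher than sham and at least 2.45-fold higher than 14 dpi when the earlier groups are set at their mean background limit. Since Tnfrsf8 entered the tests only through its 60 dpi samples it had to differ there, so its p-values are not given. Of the 547 endogenous genes, Tnfrsf8 was the only one under the limit in every sample of the first run and over it in every sample of the second, and its raw counts moved beside those of the negative control NEG_B, which are given above. T cell markers also summed higher at 60 dpi (555.5 to 785.2, against up to 552.2 in sham), where Cd3d was called and Cd3e stayed at background. That sum, without background subtraction, takes in 11 markers at background in all 15 samples. The negative-control mean was 23.9 to 27.5 in the second run against 11.8 to 15.5 in the first. The part of NEG_B or of the T cell markers in the result was not tested. On chromosome 4 Tnfrsf8 (145267132 to 145315164) neighbors Tnfrsf1b (145212368 to 145246870), which did not pass in any comparison.

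Cd40, which encodes the costimulatory receptor of antigen-presenting cells, was called at 60 dpi from counts at background. Its raw counts there were 41, 38 and 56, under the limit in all 3 samples, and only 1 sham sample and 2 samples at 14 dpi exceeded theirs. With NEG_B left out, the 60 dpi limits were 46.9, 47.8 and 39.7, and sample 3 exceeded its limit. Normalized, it had 39.2, 15.6, 14.97 and 19.9 in sham, 26.8, 19.5, 19.2 and 21.1 at 2 dpi, 20.2, 35.1, 22.8 and 32.1 at 14 dpi, and 43.7, 31.1 and 49.8 at 60 dpi, where the groups overlapped through sham sample 1. The difference from sham passed (adjusted p = 0.0337), with no fold given since 60 dpi was at background, and the call was lost with TMM scaling (adjusted p = 0.0571), after subtraction of the negative controls, and when any of sham samples 2, 3 and 4 or 60 dpi samples 1 and 3 was left out (adjusted p up to 0.129).

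Tnfaip3, the A20 gene, was highest at 14 dpi. Its normalized counts were 1285, 1661, 1952 and 1465 in sham, 1924, 2207, 1534 and 1365 at 2 dpi, 2292, 4637, 3869 and 3585 at 14 dpi, and 2430, 1849 and 989 at 60 dpi. Every sample at 14 dpi exceeded every sham and 2 dpi sample, and only 60 dpi sample 1 exceeded the lowest of them. The change was 1.18 ± 0.25 at 14 dpi against sham (adjusted p = 0.00185), 1.03 ± 0.25 at 14 against 2 dpi (adjusted p = 0.00339) and −1.03 ± 0.28 at 60 against 14 dpi (adjusted p = 0.00604). At 2 dpi, where Tnf was called, Tnfaip3 was at 0.14 ± 0.25 (adjusted p = 0.677). The sample with the lowest Tnf at 14 dpi, sample 1, was also lowest in Tnfaip3, and 2 dpi sample 4 and 60 dpi sample 3 were lowest in both at their times. In the same order, these samples were also lowest of their times in summed dendritic cell markers (3499, 1304 and 1309). The same held for the summed list of TNF-induced genes read below (15660, 10270 and 8035), so this shared rank was not particular to Tnf and Tnfaip3. In sham the lowest samples of Tnf and Tnfaip3 differed. Sham sample 3 was lowest in Tnf (660) and highest in Tnfaip3 (1952), and sham sample 1 was lowest in Tnfaip3 (1285). The 4 dendritic cell markers, of which Cd83 and Batf3 were above background in every sample, summed to 3499 to 6227 at 14 dpi against 1520 to 2386 in sham, and their part in the result was not tested. Relative to the median of all tested genes the rise from 2 to 14 dpi was 0.60, and with TMM scaling it was 0.59 and did not pass (adjusted p = 0.0662).

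Of the TRAF adaptors, Traf5, which serves receptors such as CD40 and the lymphotoxin beta receptor, was lower at 2 dpi. Its normalized counts were 88.1, 103, 121 and 80.9 in sham and 51.3, 60.3, 54.0 and 64.9 at 2 dpi, without overlap, and the change was −0.78 ± 0.20 (adjusted p = 0.00641), or −0.47 relative to the median of all tested genes. The fall passed with TMM scaling (−0.51, adjusted p = 0.0419) and did not with DESeq2 (−0.50, adjusted p = 0.0583). At 14 dpi Traf5 was 70.3, 91.6, 104 and 112, higher than every 2 dpi sample (0.70 ± 0.20, adjusted p = 0.00901), and at 60 dpi it was 115, 122 and 98.8. Traf6, the adaptor that TNF receptors share with interleukin-1 and Toll-like receptors, was called only between 2 dpi (46.4, 68.1, 49.0 and 39.9) and 14 dpi (59.1, 104, 104 and 98.0), at 0.84 ± 0.24 (adjusted p = 0.00901), with 14 dpi sample 1 inside the 2 dpi range. With TMM scaling the rises of Traf5 (0.23, adjusted p = 0.378) and Traf6 (0.39, adjusted p = 0.139) from 2 to 14 dpi did not pass. Traf3, a brake on noncanonical NF-kappaB signaling, was not called in any comparison, with group means ± SD of 58.7 ± 31.1 in sham (n = 4), 37.0 ± 9.06 at 2 dpi (n = 4), 58.8 ± 9.75 at 14 dpi (n = 4) and 56.6 ± 10.3 at 60 dpi (n = 3).

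Traf2, the adaptor nearest to TNF receptor signaling, was at background at 60 dpi. Its normalized counts were 58.7, 40.5, 33.7 and 39.7 in sham, 23.2, 32.1, 21.7 and 33.6 at 2 dpi, 37.6, 48.7, 45.6 and 37.2 at 14 dpi, and 16.0, 10.6 and 10.7 at 60 dpi. In raw counts it had 15, 13 and 12 at 60 dpi, below the mean of the negative controls there (23.9 to 27.5), against 19 to 63 in the first run, where it passed the limit in 9 of 12 samples. All 3 samples at 60 dpi were below all 12 others. It was called lower against sham and against 14 dpi. Traf2 entered the tests only through samples of the first run, and sham and 14 dpi are the higher side of these comparisons. The p-values of its 60 dpi comparisons are therefore not given. The sham and 14 dpi means did not exceed the 60 dpi background limit on the normalized scale, so no fold is given. At 2 dpi all Traf2 samples lay below all sham samples, the highest at 33.61 against 33.69. That change of −0.61 ± 0.26 was not called (adjusted p = 0.0792), but was with the authors' values where the background filter was kept. Among the 547 genes, 24 were over the limit in at least 3 sham samples and in none at 60 dpi, and 5 of them, Traf2 included, lay below the negative-control mean in all 3 samples of that run.

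**Figure D4:**
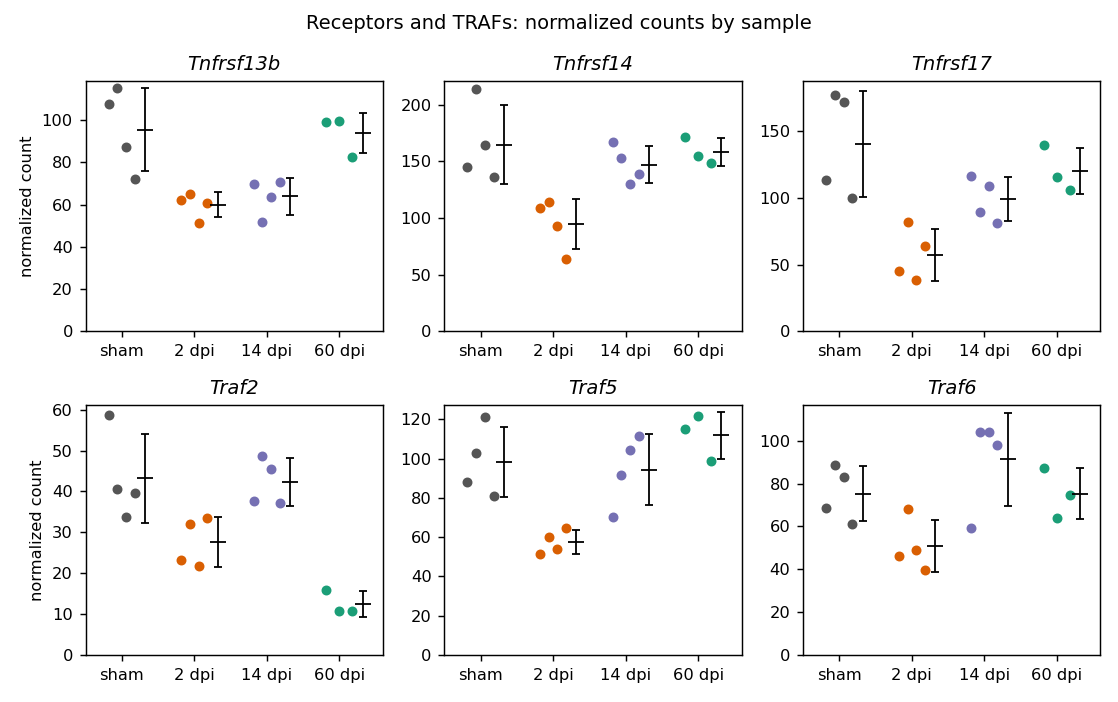
Normalized counts of Tnfrsf13b, Tnfrsf14, Tnfrsf17, Traf2, Traf5 and Traf6 in each sample, by group, with the group mean and SD as a black bar beside the points; each vertical axis is linear from 0. The 2 dpi samples of Tnfrsf13b, Tnfrsf14, Tnfrsf17 and Traf5 lie below all sham samples, as do those of Traf2 by a narrow margin, and Traf2 is lowest at 60 dpi.

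The counts of called members were set beside those of all tested genes. At 2 dpi against sham 1 of the 17 tested members was called higher, where 7.24% of all tested genes were, and 4 were called lower, where 28.1% were. The median change was −0.25 over the members and −0.30 over all tested genes. This downward shift of the whole panel depends on the scaling, since TMM factors put the median of all genes at −0.04 with 47 genes called higher and 43 lower, against 26 and 101 here. At 14 dpi against sham 2 members were higher and 1 lower, where 21.4% and 4.18% of all tested genes were, with medians of 0.00 and 0.08. With TMM factors the whole panel split into 68 higher and 65 lower, against 77 and 15 here.

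At 60 dpi against sham 5 members were higher, where 25.3% of all tested genes were, and 1 was lower, where 11.1% were. The 5 include Tnfrsf8, which entered only through its 60 dpi samples, and Cd40, at background there. The 1 lower was Traf2, also at background there, which entered only through first-run samples. The medians were 0.01 and 0.12, and with TMM factors the panel split into 76 higher and 67 lower, against 91 and 40 here. Between 2 and 14 dpi, which share no samples with sham, 6 members were higher (Tnfaip3, Tnfrsf14, Tnfrsf17, Tnfsf12, Traf5 and Traf6) and none was lower, where 39.6% and 2.79% of all tested genes were. The median was 0.55 over the members and 0.43 over all tested genes. Relative to that median the 6 changes were 0.60, 0.21, 0.36, 0.23, 0.26 and 0.40, and with TMM factors, which put the panel median at −0.02, none of the 6 passed (adjusted p = 0.0662 to 0.378). With TMM 8 of the 17 members, Tnf among them (−0.37), had a negative change, none of them called, and DESeq2 called no member in either direction. Between 14 and 60 dpi 5 members were higher (Tnfrsf8, Tnfsf10, Tnfsf12, Tnfrsf11a and Tnfrsf13b), where 21.7% of all tested genes were, and 3 were lower (Tnf, Tnfaip3 and Traf2), where 22.3% were. Here too Tnfrsf8 entered only through its 60 dpi samples, so it had to be called. Traf2 was at background at 60 dpi and entered only through first-run samples. The medians were 0.25 and 0.02. The 3 comparisons against sham share the sham samples, and the comparisons between times share samples with them.

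**Figure D5:**
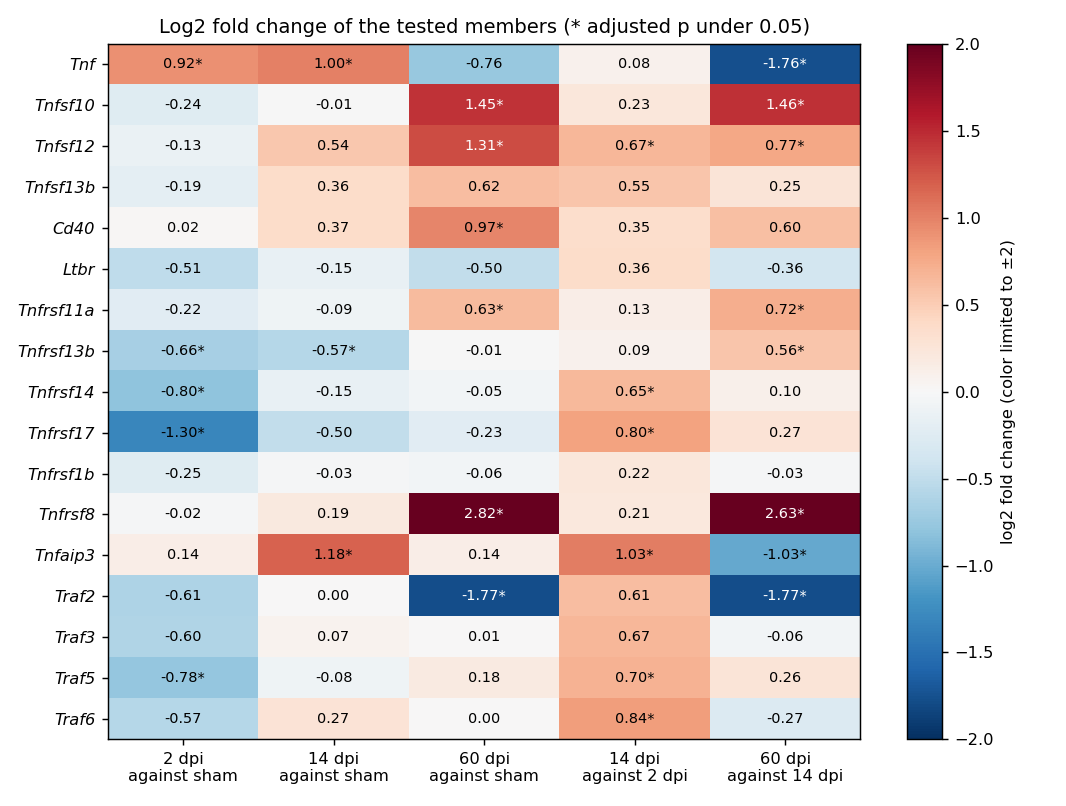
Log2 fold changes of the 17 tested members in the 5 comparisons, printed in each cell and colored from blue (lower) to red (higher) with the color limited at 2 in either direction; an asterisk marks adjusted p under 0.05. The values of Tnfrsf8, those of Cd40 in comparisons with 2 or 60 dpi, and those of Traf2 at 60 dpi are fitted against counts at background and are not folds. Tnf and Tnfaip3 are red at 14 dpi and blue from 14 to 60 dpi, while Tnfsf10, Tnfsf12, Tnfrsf11a and Tnfrsf8 are red at 60 dpi.

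Genes that act below the receptors were read from 3 lists. Of 13 tested genes for NF-kappaB subunits, kinases and inhibitors, 1 was higher and 5 were lower at 2 dpi (median −0.45), 6 were higher and 2 lower at 14 dpi (median 0.53), and 4 were higher and 2 lower at 60 dpi (median 0.03), each against sham. Of all tested genes 7.24% were higher and 28.1% lower at 2 dpi (median −0.30), 21.4% and 4.18% at 14 dpi (median 0.08), and 25.3% and 11.1% at 60 dpi (median 0.12), against which the next lists are read too. The rises at 14 dpi took in Relb, a subunit of the noncanonical pathway (1.0 ± 0.21, adjusted p = 0.00164), Nfkb2, its partner (0.80 ± 0.20, adjusted p = 0.00652), and Nfkbia, the inhibitor IkappaB-alpha (0.80 ± 0.20, adjusted p = 0.00539). From 14 to 60 dpi 4 of the 13 were called lower and 1 higher (Ikbkg), with a median of −0.06, where 22.3% and 21.7% of all tested genes were. The 4 included Relb (−1.18 ± 0.23) and Nfkb1 (−1.84 ± 0.23), the latter a subunit of the canonical pathway. Rela, another canonical subunit, was at 0.38 ± 0.21 and did not pass (adjusted p = 0.0874).

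Of 19 tested genes known to be induced by TNF in myeloid or stromal cells, 4 were higher at 2 dpi, 10 at 14 dpi and 6 at 60 dpi against sham, and 3 were lower at 60 dpi. Their medians were 0.48, 1.04 and −0.03, and the shares of all tested genes called higher were 7.24%, 21.4% and 25.3%. At 14 dpi the rises included the chemokine gene Ccl5 (2.84 ± 0.36, adjusted p = 1.81e-05), the prostaglandin synthase gene Ptgs2 (1.60 ± 0.25, adjusted p = 0.000126) and the adhesion molecule gene Icam1 (1.19 ± 0.24, adjusted p = 0.00129). From 14 to 60 dpi 10 were lower, Ccl5, Ptgs2 and Icam1 among them, and 5 were higher, such as the monocyte chemokine genes Ccl2 (1.47 ± 0.24) and Ccl7 (2.17 ± 0.38), with a median of −0.96, where 22.3% of all tested genes were lower and 21.7% higher. Of 8 tested genes for death and survival signaling, 2 were called at 2 dpi (Bid and Casp8) and 1 at 14 dpi (Casp8), all lower than sham, and at 60 dpi 1 was higher (Cradd) and 3 were lower (Bax, Bid and Casp1). The medians were −0.48, −0.13 and −0.37, and 28.1%, 4.18% and 11.1% of all tested genes were lower. Casp8, which encodes the initiator caspase of death receptors, was at −0.67 ± 0.17 at 2 dpi (adjusted p = 0.00594), where the panel median was −0.30.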

How the data were processed

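The authors deposited raw nCounter counts, exported without normalization and handled here as estimated counts, and a table of normalized signal values that the authors made with NanoStringNorm. On testing, each signal value equaled the raw count less the mean of the negative controls, floored at 0 and multiplied by a factor for the sample. That factor was read from the signal values themselves, and whether it came from the housekeeping genes was not tested. All fits except those of the authors' values started from the raw counts. Samples were scaled by a positive-control factor times a housekeeping factor (14 genes), which together ran from 0.511 to 1.87.

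Genes above the mean plus 2 SD of the negative controls in 3 or more samples entered edgeR 4.0.16 (R 4.3.3) and were tested by the quasi-likelihood F test with robust estimation, in 1 fit of all 15 samples, with Benjamini-Hochberg adjustment at 0.05. A group with no sample above background was set at its mean limit for a fold given as "at least". The script was tested on simulated data. Alternatives were TMM, housekeeping or positive-control factors alone, DESeq2 1.42.0, subtraction of the negative controls, a negative binomial test with additive background, other background limits and filters, fits of fewer groups, limma 3.58.1 on log2 of the authors' signal plus 1 or 10, and leaving out each sample. A fit without sham sample 4 and 2 dpi sample 3 was added after seeing the data.

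The members and gene lists were chosen with earlier results of these data known. Every member called in a comparison is named with its values, as are Tnf and Tnfrsf1b, and so is every member not above background in at least 3 samples. Of the 34 members, 33 were located in RefSeq's GRCm38.p6 annotation by accession and 1 by symbol. A B cell marker is not reported here.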

Additional observations from a re-analysis of the deposited data

Results flagged for a closer look

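In 4 of 51 groups of 4 samples looked at, 1 sample stood apart from the rest of its group by Dixon's criterion, which chance alone meets in about 1 of 20 groups. These were the sham sample of Ltbr at 104.4 normalized counts, the sham sample of Tnfsf13b at 76.4, the 2 dpi sample of Traf3 at 50.56 and the 14 dpi sample of Traf6 at 59.12.

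The change against sham differed between 2 and 14 dpi, by the test of the difference itself in edgeR, for Tnfaip3 (1.03), Tnfrsf14 (0.65), Tnfrsf17 (0.80), Tnfsf12 (0.67), Traf5 (0.70) and Traf6 (0.84), all on the log2 scale. With TMM scaling none of these passed (adjusted p = 0.0662 to 0.378). Between 14 and 60 dpi the change against sham differed for Tnf (−1.76), Tnfaip3 (−1.03), Traf2 (−1.77), Tnfrsf8 (2.63), Tnfsf10 (1.46), Tnfsf12 (0.77), Tnfrsf11a (0.72) and Tnfrsf13b (0.56). The 60 dpi samples are also the second run. The values of Tnfrsf8 and of Traf2 rest on a group that was wholly at background, so they are not folds. Tnfrsf8 entered the tests only through its 60 dpi samples, so it had to differ there and its test is no evidence of a difference. Traf2 entered only through first-run samples, so its call as lower at 60 dpi is not given as evidence either.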

How the results depend on the processing

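No called change of a member turned direction under any alternative run. With positive-control factors alone the members called fell to 0 higher and 0 lower at 2 dpi against sham, 0 and 0 at 14 dpi, 2 higher at 60 dpi, 0 higher at 14 against 2 dpi and 2 higher at 60 against 14 dpi. TMM gave 2 lower at 14 dpi, 3 lower at 60 dpi and 0 higher at 14 against 2 dpi, and DESeq2 gave 2 lower at 2 dpi, 2 lower at 14 dpi, 3 lower at 60 dpi and 0 higher at 14 against 2 dpi. With the authors' values in limma no member was called higher at 2 dpi and 1 at 14 dpi, in all 3 settings (0 and 1), and 7 were lower at 2 dpi with a pseudocount of 1 or 10. Without the background filter there were 0 higher at 2 dpi, 1 higher and 0 lower at 14 dpi. The lower count at 14 dpi was 0 with the additive background test, in the fit of the compared groups alone and in the fit without 60 dpi, and the lower count at 60 dpi was 2 with subtraction or additive background and 0 with the stricter filter. Without sham sample 4 and 2 dpi sample 3, a choice made after seeing the data, 0 were higher at 2 dpi, and 1 was higher and 2 were lower at 14 dpi. Why these counts moved was not tested, beyond there being fewer samples or other genes in some fits.

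Leaving out each sample gave 0 to 1 higher at 2 dpi, 1 to 2 higher and 0 to 1 lower at 14 dpi, and 1 to 2 lower at 60 dpi. The calls of Tnfrsf17 and Tnfsf12 at 14 against 2 dpi were lost without 2 dpi sample 3, and that of Tnfrsf13b at 2 dpi without sham sample 2 or 2 dpi sample 3 (adjusted p up to 0.059 in edgeR). That of Tnfrsf13b at 60 against 14 dpi was lost without 2 dpi sample 1, 14 dpi sample 2 or 3, or 60 dpi sample 1 or 2 (adjusted p up to 0.125). No paired analysis was possible because the labels give no replicate numbers that tie samples across groups. Counts near the background limit restrict what can be said of Cd40, Tnfrsf8, Traf2 and the 17 members outside the tests.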
